A study of Mus musculus with 6 samples.

Results

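The cytochrome P450 genes are described here in mouse myeloid progenitors with and without Dot1l. Members were chosen by symbol, as the rows named Cyp with a family number, a subfamily letter and a gene number. This gave 94 of the 31626 rows in each table, 3 of them pseudogenes, and none held the placeholder of a failed estimate. Of the 94 members, 13 had a mean of at least 1 FPKM over the 6 libraries and were described singly and tested. FPKM counts the fragments of a gene after division by its length and by the sequenced total of its library. The 13 were thus selected on the mean over both groups, and a gene that is high in one group alone could pass through that group.

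All cells were common myeloid progenitors of C57Bl/6 mice with a floxed Dot1l gene, transformed by the retroviral vector MSCV-MN1-IRES-GFP, which carries the leukaemia oncogene MN1. They grew in M3234, a methylcellulose medium, with serum and the cytokines IL3, IL6 and SCF, and were sorted at day 7 after transduction. The 3 control libraries came from Dot1l flox/flox cells transduced with a control. The 3 Dot1l-deleted libraries came from cells transduced with Cre, labelled Dot1l -/-. DOT1L is the enzyme that methylates lysine 79 of histone H3. Cre was given to no cells that kept Dot1l, so the effects of Cre and of the deletion cannot be told apart. Whether replicates were separate cultures or animals is not stated in the labels, and p-values then measure only the spread between these libraries, which may be technical.

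P450 enzymes are haem proteins that insert an atom of oxygen into a substrate. Most sit in the endoplasmic reticulum and receive electrons from the reductase POR, while a few sit in mitochondria and receive them through ferredoxin and its reductase. Some families oxidise drugs and other foreign compounds, chiefly in the liver. Others make or break down steroid hormones, bile acids, retinoic acid, vitamin D and the lipid mediators formed from arachidonic acid, and some of these act in blood cells.

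Dot1l itself was at 20.2, 22.6 and 19.6 FPKM in the controls and at 8.24, 8.17 and 5.80 in the Dot1l-deleted libraries, a 2.81-fold lower mean. Gene-level values do not separate the deleted part of the gene. The third Dot1l-deleted library stood apart: 39.0% of its summed FPKM lay in 10 rows, where the others had 6.59% to 10.8%, and it was the lowest of its group for every tested P450 gene but Cyp2d40. Over the 11924 tested genes the median log2 fold change was -0.16, and 0.00 after median-of-ratios scaling, which divides each library by its median ratio to the others. Log2 values on that second scale are called scaled values below. Of 8 tested progenitor markers, 2 were called higher and 3 lower after deletion, against 7.43% and 12.2% of all tested genes. Cd34 fell 6.10-fold and Kit 2.04-fold, Mpo rose 4.05-fold, and Myb was at a mean of 257 FPKM in controls and 263 after deletion.

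The 5 P450 genes that were called higher with at least a 4-fold ratio of means are compared first, and the stretch of genome before the start of each is shown here. In total 68 of the 94 members, and 11 of the 13, were matched by symbol to RefSeq's promoter table, build GRCm38.p6. Each line gives the 250 bases before the annotated start, 5′ to 3′ on the gene's strand. Capitals mark matches, on either strand, to 5 short motifs: TATAAA, the TATA box; GCGTG, the core bound by AHR with ARNT; AGGTCA, bound by many nuclear receptors; TTGCNNAA, of the kind bound by C/EBP factors; and GAGGAA, a core bound by PU.1.
Cyp2a5 (chr7:26835089-26835338, plus strand): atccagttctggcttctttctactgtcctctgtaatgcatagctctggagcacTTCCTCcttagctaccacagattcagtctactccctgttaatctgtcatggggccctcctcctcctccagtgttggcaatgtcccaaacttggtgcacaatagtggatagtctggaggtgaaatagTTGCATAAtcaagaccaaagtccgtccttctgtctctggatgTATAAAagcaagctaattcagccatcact
Cyp2j6 (chr4:96553652-96553901, minus strand): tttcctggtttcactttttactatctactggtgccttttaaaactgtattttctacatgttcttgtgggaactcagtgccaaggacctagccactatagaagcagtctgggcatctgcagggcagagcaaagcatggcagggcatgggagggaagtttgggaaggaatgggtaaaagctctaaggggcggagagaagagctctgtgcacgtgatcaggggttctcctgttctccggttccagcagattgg
Cyp2j9 (chr4:96591486-96591735, minus strand): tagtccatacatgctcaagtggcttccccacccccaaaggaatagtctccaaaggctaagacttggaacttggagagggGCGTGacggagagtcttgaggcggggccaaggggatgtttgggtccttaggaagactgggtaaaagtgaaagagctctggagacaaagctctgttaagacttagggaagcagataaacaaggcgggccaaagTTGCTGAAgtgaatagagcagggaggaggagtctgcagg
Cyp27a1 (chr1:74713285-74713534, plus strand): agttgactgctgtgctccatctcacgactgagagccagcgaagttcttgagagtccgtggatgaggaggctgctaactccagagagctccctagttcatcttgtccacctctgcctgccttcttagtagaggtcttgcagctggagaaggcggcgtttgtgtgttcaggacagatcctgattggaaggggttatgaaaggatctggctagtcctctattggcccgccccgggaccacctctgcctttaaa
Cyp4f18 (chr8:72009627-72009876, minus strand): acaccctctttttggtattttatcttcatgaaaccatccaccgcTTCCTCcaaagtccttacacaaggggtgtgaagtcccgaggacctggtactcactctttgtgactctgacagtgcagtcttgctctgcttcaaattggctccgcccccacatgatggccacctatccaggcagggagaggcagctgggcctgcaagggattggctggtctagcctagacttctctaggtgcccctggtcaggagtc

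No motif was common to the 5 windows. Cyp2a5 alone held the TATA box, beginning at position -29 counted back from the start, and 12.4% of all 32851 windows of this length held that motif. The TTGCNNAA motif was in Cyp2a5, at -71, and in Cyp2j9, at -39, against 9.6% of all windows. GAGGAA was in Cyp2a5, at -197, and in Cyp4f18, at -206, against 23.3%. GCGTG was in Cyp2j9 alone, at -171, against 28.2%, and AGGTCA in none, against 14.0%. None of these matches overlapped another, and Cyp2j6 and Cyp27a1 held no match in this window. For Cyp27a1 the bases just after the RefSeq start were not found near the start of any GENCODE M21 transcript of the gene, as they were for the other 4, and whether this window lies before the start used in these cells was not tested. The windows held 1 to 7 CpG pairs, while the median of all windows was 6 and the middle 50% ran from 2 to 16. The longest run of bases shared by any pair of the 5 windows had 10 bases, in the neighbours Cyp2j6 and Cyp2j9 (tgggtaaaag) and in Cyp2j9 and Cyp2a5 (agctctggag).

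In the Dot1l-deleted cells 8 of the tested P450 genes rose and Cyp2d40 fell. Cyp11a1, by far the highest P450 gene in both groups, went from a mean of 445 to 303 FPKM and did not pass the test. Cyp2a5 rose 28.9-fold, Cyp2j6 14.0-fold, Cyp27a1 10.1-fold, Cyp2j9 8.42-fold and Cyp4f18 4.03-fold as ratios of mean FPKM. Of the 13 tested genes, 8 were called higher, 1 was called lower and 4 were not called, at a Benjamini-Hochberg adjusted p under 0.05 by limma over all tested genes. Over all tested genes 19.7% were called, 7.43% higher and 12.2% lower. A call with a ratio of at least 2 upward was made for 6 of the 13, against 5.32% of all tested genes, and one with a ratio of at least 4 for 5, against 2.42%. Leaving out any 1 control library, or the first or second Dot1l-deleted library, left 5 or 6 called higher. The count of 8 carries the choice made by the filter: Cyp2a5, Cyp2j9 and Cyp27a1 had control means under 1 FPKM and passed through the Dot1l-deleted libraries alone. Of the 10 genes with a control mean of at least 1, 5 were called higher and 1 lower, and 3 were called higher with a ratio of at least 2 and 2 with a ratio of at least 4. The counts over the 13 are therefore a description of the genes that passed. For the 10, no share over all genes with such a control mean was computed. The shares above are over genes filtered on both groups and cannot be set beside them. These are bulk samples, in which fewer cells of a type and less RNA per cell cannot be told apart.

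With median-of-ratios scaling 10 of the 13 passed upward and 2 downward, where 45.3% of all tested genes passed, 23.0% upward and 22.3% downward. When the third Dot1l-deleted library was left out the counts were again 10 and 2, against 17.4% and 21.0%. The 9 genes called with the values as deposited were among these in both cases. The median log2 fold change of the 13 was 0.67, and the scaled one 0.79, beside -0.16 and 0.00 over all tested genes. These medians and the counts of this paragraph include Cyp2a5, Cyp2j9 and Cyp27a1, which passed the filter through the Dot1l-deleted libraries alone. They too describe only the genes that passed. The groups did not overlap in any of the 13, with 10 higher and 3 lower, while 10.7% of all tested genes were higher without overlap and 34.1% lower. For 3 against 3 libraries an exact two-sided permutation test cannot give less than p = 0.1, which each of the 13 reached.

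**Figure D1:**
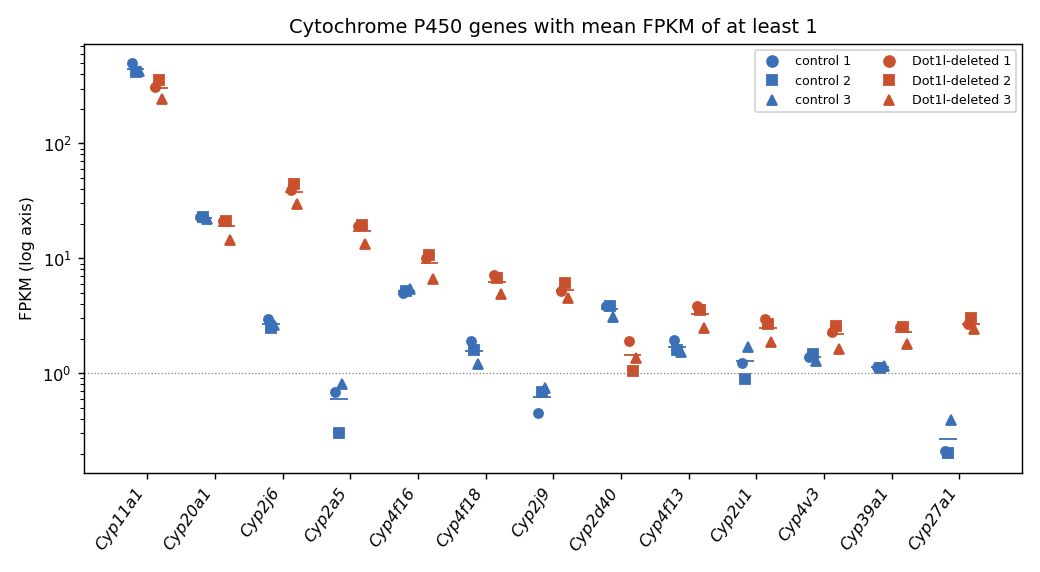
FPKM of the 13 tested P450 genes in each library, on a log axis, ordered by mean over the 6 libraries. Blue points are control and red points Dot1l-deleted libraries, marker shapes are replicate numbers, short bars are group means and the dotted line is at 1 FPKM, and after deletion Cyp2a5 overlaps Cyp20a1 and Cyp2j6 lies above it.

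The order of levels changed as well, and FPKM can be compared between genes because it is per length. In controls Cyp11a1 came first at 445 ± 44.1 FPKM, then Cyp20a1 at 22.6 ± 0.624, Cyp4f16 at 5.201 ± 0.229, Cyp2d40 at 3.59 ± 0.445 and Cyp2j6 at 2.68 ± 0.253 (SD, n = 3 each). Below these, Cyp4f13, Cyp4f18, Cyp4v3, Cyp2u1 and Cyp39a1 lay between 1.14 and 1.68 FPKM, and neighbours in that order overlapped between libraries. After deletion Cyp2j6 came second at 37.5 ± 7.34 FPKM, and Cyp20a1, at 19.0 ± 3.92, and Cyp2a5, at 17.3 ± 3.49, overlapped (SD, n = 3 each). Cyp4f16, Cyp4f18 and Cyp2j9 followed at 9.12, 6.28 and 5.26 FPKM, each overlapping the next, and the other 6 lay between 1.43 and 3.29. Summed FPKM over the 94 members was 458 to 541 in controls and 329 to 485 after deletion. Cyp11a1 held 90.4% to 91.6% of that sum in controls and 71.9% to 73.8% after deletion. Without Cyp11a1, itself lower after deletion, the sum was 43.5 to 45.7 FPKM in controls and 86.8 to 127 after deletion. The groups did not overlap in this sum, while they did in the sum over all 94 members. The largest rises in it were those of Cyp2j6, from 2.68 to 37.5 FPKM, and Cyp2a5, from 0.599 to 17.3. Cyp2a5 passed the filter through the Dot1l-deleted libraries alone.

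Cyp2a5 (ENSMUSG00000005547) encodes an enzyme that oxidises coumarin and nicotine and is best known from liver and nasal tissue. It was at 0.682, 0.300 and 0.813 FPKM in controls and at 19.0, 19.5 and 13.3 after deletion. Each Dot1l-deleted library was thus far above each control, the third being the lowest of its group. The log2 fold change, taken on log2(FPKM + 1) throughout, was 3.51 (SE 0.192, limma adjusted p = 9.768e-07; scaled value 3.63). With a pseudocount of 0.1 it was 4.70 and with 5 it was 1.98, since this scale understates the change of low genes. In the GENCODE M21 transcripts, 40.8% of the distinct stretches of 50 bases in Cyp2a5 recur in another gene, and 31.0% of all its stretches recur in Cyp2a4, a close relative in steroid hydroxylation. The split of reads between these genes is therefore uncertain. The deposited Cyp2a4 row was listed at 0 in the controls and at 0.0712, 0.202 and 0.0244 FPKM after deletion.

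Cyp2j6 and Cyp2j9 encode members of a subfamily that oxidises arachidonic acid and related fatty acids, and they lie next to each other on chromosome 4. Cyp2j6 (ENSMUSG00000052914) was at 2.96, 2.46 and 2.63 FPKM in controls and at 39.1, 43.9 and 29.5 after deletion. Its log2 fold change was 3.37 (SE 0.164, limma adjusted p = 4.768e-07; scaled value 3.53). By level it moved from place 9910 to 10217 among the rows of a control library to place 2565 to 2871 of a Dot1l-deleted one. Cyp2j9 (ENSMUSG00000015224) was at 0.451, 0.683 and 0.740 FPKM in controls and at 5.19, 6.07 and 4.52 after deletion, with no overlap. Its log2 fold change was 1.94 (SE 0.174, limma adjusted p = 2.33e-05), and 2.90 with a pseudocount of 0.1. In this gene no stretch of 50 bases recurred in another gene, and in Cyp2j6 only 0.42% did.

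Cyp27a1 and Cyp39a1 act on sterols on the way to bile acids. Cyp27a1 (ENSMUSG00000026170), a mitochondrial sterol hydroxylase that macrophages also use, was at 0.210, 0.202 and 0.389 FPKM in controls and at 2.68, 2.999 and 2.41 after deletion. The groups lay well apart, and the third Dot1l-deleted library differed less from the other 2 here than for Cyp2j6 or Cyp2a5. The log2 fold change was 1.54 (SE 0.188, limma adjusted p = 0.0002041), and it ran from 0.55 with a pseudocount of 5 to 2.96 with 0.1. Cyp39a1 (ENSMUSG00000023963), a hydroxylase of oxysterols in the endoplasmic reticulum, was at 1.13, 1.12 and 1.16 FPKM in controls and at 2.54, 2.50 and 1.81 after deletion. That is a 2.01-fold higher mean, with a log2 fold change of 0.61 (SE 0.178, limma adjusted p = 0.03532). The Cyp39a1 call was lost without any 1 control library and without the first or second Dot1l-deleted library, at limma adjusted p-values of 0.0686 to 0.0955.

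The CYP4F enzymes hydroxylate the ends of fatty acids and of leukotrienes, and the product of Cyp4f18 is known to break down the neutrophil attractant leukotriene B4 in mouse neutrophils. Cyp4f18 (ENSMUSG00000003484) was at 1.89, 1.59 and 1.201 FPKM in controls and at 7.22, 6.74 and 4.87 after deletion. Its lowest Dot1l-deleted value was thus above its highest control, and the log2 fold change was 1.502 (SE 0.182, limma adjusted p = 2e-04; scaled value 1.64). Cyp4f16 (ENSMUSG00000048440) was at 4.997, 5.16 and 5.45 FPKM in controls and at 10.1, 10.7 and 6.61 after it (log2 fold change 0.68, SE 0.174, limma adjusted p = 0.01915). Cyp4f13 (ENSMUSG00000024055) was at 1.95, 1.58 and 1.52 FPKM in controls and at 3.86, 3.53 and 2.47 after it (log2 fold change 0.67, SE 0.181, limma adjusted p = 0.02693). The calls of these last 2 genes were less firm than that of Cyp4f18. Both were lost with no filter on low values (limma adjusted p of 0.0743 and 0.0604) and without any 1 library other than the third Dot1l-deleted one, at 0.0612 to 0.0936 for Cyp4f16 and 0.0503 to 0.0962 for Cyp4f13. In Cyp4f16, 26.5% of stretches of 50 bases recur in another gene, most of them in Cyp4f37, so its split of reads is uncertain.

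Cyp2u1 and Cyp4v3, both fatty acid hydroxylase genes, were higher in each Dot1l-deleted library than in any control but did not pass with the values as deposited. Cyp2u1 (ENSMUSG00000027983) was at 1.23, 0.895 and 1.68 FPKM in controls and at 2.94, 2.67 and 1.88 after deletion (log2 fold change 0.63, SE 0.203, limma adjusted p = 0.05524). Cyp4v3 (ENSMUSG00000079057) was at 1.40, 1.46 and 1.28 FPKM in controls and at 2.31, 2.59 and 1.62 after deletion (log2 fold change 0.41, SE 0.184, limma adjusted p = 0.1573). Cyp2u1 lay at the threshold: it also passed with a pseudocount of 0.1 or 5, with no variance trend, with a replicate block and without control library 3, at limma adjusted p-values of 0.02407 to 0.04998. Both passed with median-of-ratios scaling, with limma adjusted p-values of 0.007341 and 0.004651, and again, at 0.0226 and 0.01056, once the third Dot1l-deleted library was left out.

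Cyp11a1 (ENSMUSG00000032323) encodes the mitochondrial enzyme that cuts the side chain of cholesterol to give pregnenolone, the first step of steroid hormone synthesis. Its FPKM was 495, 414 and 426 in controls and 310, 358 and 242 after deletion, so that each Dot1l-deleted library was below each control. By level it stood in place 124 to 151 among the 31248 rows of a control library that were not left out, and in place 203 to 255 of a Dot1l-deleted one. The mean was 1.47-fold lower, with a log2 fold change of -0.57 (SE 0.193, limma adjusted p = 0.06611), which did not pass. The scaled value was -0.38 (limma adjusted p = 0.01217), and without the third Dot1l-deleted library the value was -0.41 (limma adjusted p = 0.03912); both passed. Of 5 tested mast cell markers, Ms4a2, Hdc and Cma1 were called lower and Tpsb2 higher, against 12.2% and 7.43% of all tested genes. Cpa3 was not called (limma adjusted p = 0.176), and its groups overlapped. The summed level of all 7 matched mast cell markers was 2361 to 2602 FPKM in controls and 1482 to 2154 after deletion, most of it from Cpa3, with Fcer1a listed at 0 in Dot1l-deleted libraries 1 and 2. Their part in the result was not tested.

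Cyp2d40 was the one P450 gene called lower with the values as deposited. Cyp2d40 (ENSMUSG00000068083), of the CYP2D subfamily, was at 3.83, 3.86 and 3.08 FPKM in controls and at 1.91, 1.05 and 1.35 after deletion, and here the third Dot1l-deleted library was not the lowest. The mean was 2.50-fold lower, with a log2 fold change of -0.93 (SE 0.184, limma adjusted p = 0.005198; scaled value -0.80). In this gene 15.3% of stretches of 50 bases recur in another gene, so some reads could come from relatives. Cyp20a1 (ENSMUSG00000049439), which has no established substrate, was at 23.0, 22.9 and 21.9 FPKM in controls and at 21.2, 21.3 and 14.5 after deletion. The first 2 Dot1l-deleted libraries lay just under the controls and the third well under them. The log2 fold change was -0.26 (SE 0.169, limma adjusted p = 0.3211) and the scaled value -0.08 (limma adjusted p = 0.1381), and Cyp20a1 was called under none of the alternatives.

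**Figure D2:**
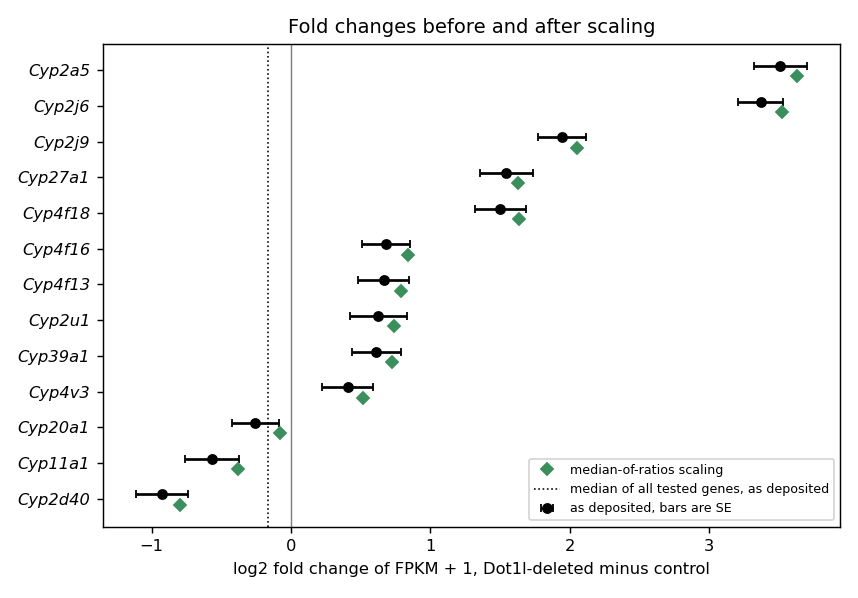
Log2 fold change of FPKM + 1 (Dot1l-deleted minus control, horizontal axis) of the 13 tested P450 genes. Black points are the values as deposited with bars of 1 standard error, green diamonds are values after median-of-ratios scaling, and the dotted line is the median of all tested genes as deposited, at -0.16; scaling left every sign as it was.

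Of the 94 members, 81 were below the filter. Among these, 43 were listed at 0 in all 6 libraries and 38 were above 0 in at least 1. An exact 0 need not mean no reads, because both rows of Hmgcs1, a cholesterol synthesis gene that growing cells use, were also listed at 0 throughout. At the median transcript length of these genes, 1962 bases, 1 fragment was worth about 0.0204 to 0.0306 FPKM, judged from where the lowest values of genes with 1 exon pile up. Of the 38, 31 had a mean under 0.1 FPKM, a few fragments at most.

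Cyp4f41-ps, a pseudogene beside Cyp4f13, was the nearest below the filter, with a mean of 0.605 FPKM, and after it came Cyp26b1 at 0.302 and Cyp1a1 at 0.300. The nearest above it were Cyp27a1 at 1.48 and Cyp39a1 at 1.71. Cyp4f41-ps was at 0.558, 0.305 and 0.378 FPKM in controls and at 0.829, 1.01 and 0.554 after deletion, and its groups overlapped. Cyp26b1, which encodes an enzyme that breaks down retinoic acid, was at 0.343, 0.689 and 0.425 FPKM in controls and lower, at 0.164, 0.0993 and 0.0934, after deletion. Cyp1a1, the best known target of the aryl hydrocarbon receptor, was at 0.0823, 0 and 0.0523 FPKM in controls and at 0.657, 0.724 and 0.283 after deletion. Its relative Cyp1b1 was at 0.0589, 0.0921 and 0.0923 FPKM in controls and at 0.184, 0.215 and 0.201 after deletion.

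In 10 of the 38 the groups did not overlap and the Dot1l-deleted libraries were higher, and in 2, Cyp26b1 and Cyp2b10, they were lower. Of all 8644 genes above 0 and below the filter, 14.3% were higher without overlap and 8.03% lower. The other genes of the 10, besides Cyp1a1, Cyp1b1 and Cyp2a4, were Cyp2d22, Cyp2b9, Cyp2g1, Cyp26a1, Cyp2s1, Cyp2c44 and Cyp2j8, all at or under 0.172 FPKM in every library. Cyp2b10, a gene of foreign-compound oxidation, was at 0.347, 0.248 and 0.171 FPKM in controls and at 0.0429, 0.0261 and 0 after deletion. With no filter on low values, Cyp1a1, Cyp1b1 and Cyp2g1 were called higher, at log2 fold changes of 0.56, 0.15 and 0.12. Cyp26b1 and Cyp2b10 were called lower, at -0.40 and -0.29. The limma adjusted p-values of these genes were 0.01409 to 0.03871. In that fit 1342 of all genes with a mean above 0 were called higher and 1373 lower. Each of the named genes was under 1 FPKM in every library, and Cyp2g1 was listed at 0 in the controls.

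**Figure D3:**
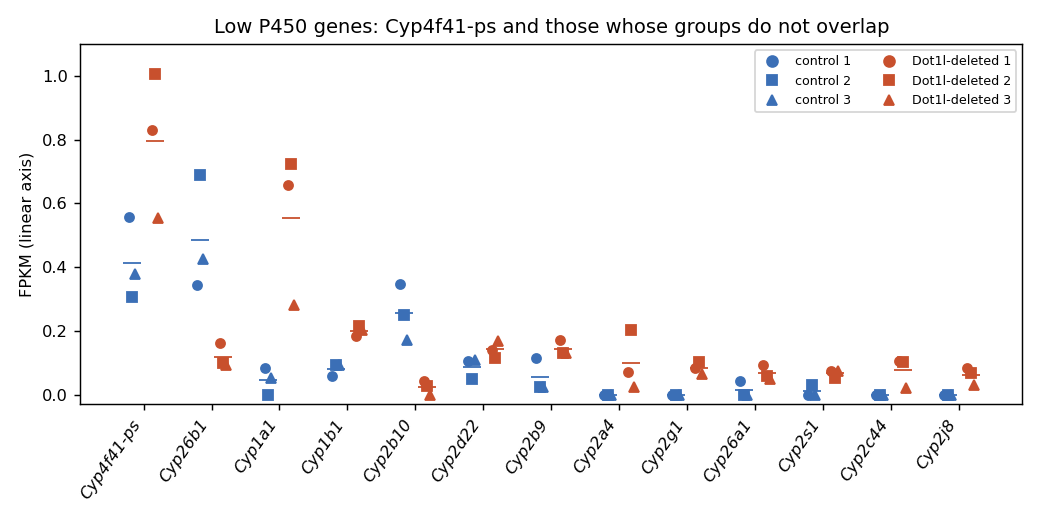
FPKM on a linear axis of Cyp4f41-ps and of the 12 P450 genes below the filter whose groups did not overlap, ordered by mean. Blue points are control and red points Dot1l-deleted libraries, marker shapes are replicate numbers and short bars are group means, and Cyp26b1 and Cyp2b10 are the ones higher in the controls.

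Of a fixed set of tissue-specific P450 genes, most were at or near 0. Cyp2e1 and Cyp3a11, foremost among the drug-oxidising genes of liver, and Cyp17a1 and Cyp19a1, which make androgens and oestrogens, were listed at 0 in all 6 libraries. Cyp1a2, Cyp7a1, the rate-limiting enzyme of bile acid synthesis, Cyp11b1 and Cyp24a1 were above 0 in 1 or 2 libraries each, up to 0.0440 FPKM for Cyp7a1. Cyp27b1, which activates vitamin D, ran from 0.0183 to 0.0432 FPKM in controls and 0.0321 to 0.0659 after deletion. Among 10 hepatocyte markers, 5 were listed at 0 in all libraries (Fga, Fgb, Pck1, Serpina1a and Ttr), and Alb was at most 0.0405 FPKM in any library. The 2 markers of this list that were tested, Apoa2 and Hnf4a, had control means of 3.13 and 3.49 FPKM. After deletion their means were 2.33 and 0.192. The pattern of symbols leaves out other P450 genes, such as Cyp51 of cholesterol synthesis, with means of 36.2 ± 3.84 FPKM (controls) and 30.9 ± 6.37 (Dot1l-deleted; SD, n = 3 each, limma adjusted p = 0.3885), and Tbxas1, the thromboxane synthase gene, at 3.22 ± 0.330 and 3.96 ± 0.143.

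Many P450 genes lie in clusters of relatives, and within a cluster few members were measurable. RefSeq's gene order, on a newer build than the files, placed 92 of the 94 members. In the Cyp2j cluster of 8 members on chromosome 4, Cyp2j8, Cyp2j6 and Cyp2j9 follow one another. All 3 were higher in each Dot1l-deleted library than in any control, while Cyp2j8 was listed at 0 in the controls and reached 0.0844 FPKM, and the other 5 were listed at 0 in every library but for 1 value of Cyp2j12. In the cluster of 12 members on chromosome 7, Cyp2g1, next to Cyp2a5, was listed at 0 in controls and was at 0.0849, 0.103 and 0.0654 FPKM after deletion, and Cyp2b10 moved the other way. In the Cyp2d cluster of 8 members on chromosome 15, Cyp2d40 was lower without overlap and Cyp2d22 higher. Cyp2d22 was at 0.106, 0.0496 and 0.108 FPKM in controls and at 0.141, 0.115 and 0.170 after deletion. The listed values of a cluster did not, then, all move one way, but Cyp2b10 and Cyp2d22 were both below the filter. Of all genes above 0 and below it, 14.3% were higher without overlap and 8.03% lower.

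**Figure D4:**
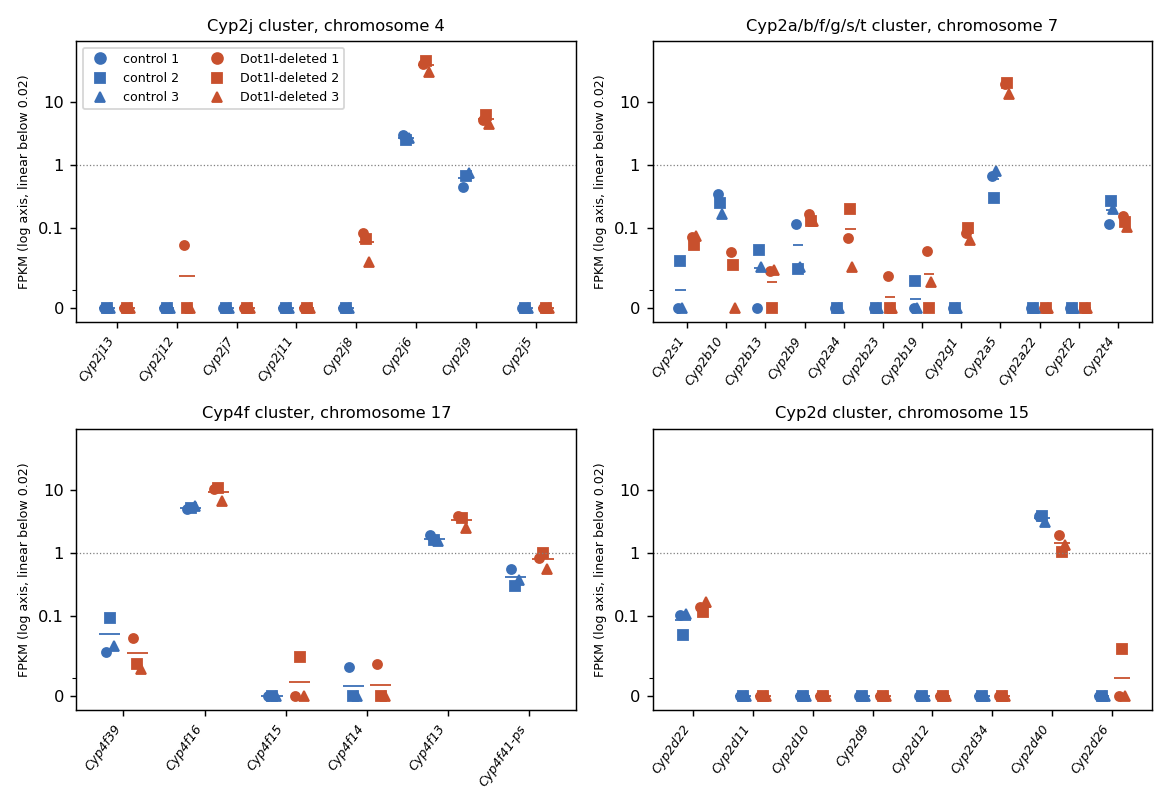
FPKM of the members of 4 P450 clusters, in their order along the chromosome from left to right, on a log axis that is linear below 0.02. Blue points are control and red points Dot1l-deleted libraries, marker shapes are replicate numbers, short bars are group means, and the dotted line is at 1 FPKM, which group means pass for only 1 or 2 genes in each cluster.

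Of 11 tested electron donors and partners of P450 enzymes, 1 was called higher and 3 lower, against 7.43% and 12.2% of all tested genes. Their median log2 fold change was -0.26 beside -0.16 over all tested genes. After median-of-ratios scaling the counts were 2 and 3, against 23.0% and 22.3%, with a median of -0.08 beside 0.00. Por, the reductase of the endoplasmic reticulum enzymes, was at 103, 96.7 and 91.8 FPKM in controls and at 65.9, 59.2 and 45.0 after deletion (log2 fold change -0.78, SE 0.180, limma adjusted p = 0.0111). Fdxr, the reductase of the mitochondrial chain that feeds CYP11A1 and CYP27A1, fell from 14.9 ± 0.955 to 9.64 ± 2.34 FPKM (SD, n = 3 each; limma adjusted p = 0.03749). Cyb5r3, a cytochrome b5 reductase gene, fell 1.46-fold. Pgrmc2, which encodes a haem-binding membrane protein, rose 2.46-fold, from 143 ± 2.11 to 352 ± 60.9 FPKM. Without any 1 control library, or without the second Dot1l-deleted library, at most 1 gene of this list was called lower.

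Of 13 genes of haem synthesis and breakdown, 2 were called higher and 3 lower, against 7.43% and 12.2% of all tested genes. Alas1, the rate-limiting step of haem synthesis outside the red cell line, rose from 30.7, 29.0 and 28.1 FPKM in controls to 105, 105 and 73.0 after deletion, a 3.22-fold higher mean (log2 fold change 1.63, SE 0.179, limma adjusted p = 9.802e-05). Blvrb, a biliverdin reductase gene, rose 2.12-fold. Blvra, Hmox1, the inducible haem oxygenase gene, and Alas2, the erythroid form, were called lower, and 0 genes of this list were when any 1 control library was left out. The median log2 fold change of the list was -0.31.

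Of 16 tested receptors and factors that regulate P450 genes, 2 passed upward and 1 downward, against 7.43% and 12.2% of all tested genes. After median-of-ratios scaling 6 and 3 did, against 23.0% and 22.3%. Pparg, a fatty acid receptor gene, rose from 0.391, 0.507 and 0.209 FPKM to 4.70, 3.87 and 3.49 (log2 fold change 1.87, SE 0.186, limma adjusted p = 4.975e-05). Nr1h3, the oxysterol receptor gene of macrophages, rose 2.89-fold. Hnf4a, a receptor gene best known from liver, fell from 2.98, 3.85 and 3.64 FPKM to 0.263, 0.209 and 0.102 (log2 fold change -1.91, SE 0.185, limma adjusted p = 4.129e-05). Pparg and Nr1h3 had control means under 1 FPKM and Hnf4a a Dot1l-deleted mean under 1. Each thus passed the filter through the other group alone. Ahr, the receptor that drives Cyp1a1 and Cyp1b1 in many tissues, had means of 2.65 ± 0.429 FPKM (controls) and 2.94 ± 0.321 (Dot1l-deleted; SD, n = 3 each, limma adjusted p = 0.6529). Those groups overlapped.

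Among the enzymes of retinoid metabolism and of leukotriene, prostanoid and epoxide metabolism, some of the largest differences were falls. Of 6 tested genes of retinoid metabolism, Aldh1a2, which makes retinoic acid, fell 13.7-fold, from 4.02 ± 0.967 to 0.294 ± 0.0819 FPKM (SD, n = 3 each; limma adjusted p = 5.569e-05), and Dhrs3, a retinal reductase gene, rose 2.60-fold. The retinoic acid-degrading Cyp26b1, below the filter, was also lower, as given above. Of 13 tested genes of leukotriene, prostanoid and epoxide metabolism, 2 were called higher and 4 lower, against 7.43% and 12.2% of all tested genes. Lta4h, whose product makes leukotriene B4, rose 1.58-fold and its receptor gene Ltb4r1 2.68-fold, from 11.8 ± 1.58 to 31.6 ± 4.33 FPKM, while Alox5, which acts upstream of Lta4h, fell 1.97-fold and Ptgds, a prostaglandin synthase gene, 10.5-fold. Aldh1a2 and Ptgds had Dot1l-deleted means of 0.294 and 0.630 FPKM and passed the filter through the controls alone. Without any 1 library other than the third Dot1l-deleted one, 1 gene of the leukotriene, prostanoid and epoxide list was called higher. 

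Of 30 tested genes of cholesterol synthesis and oxysterol handling, 2 were called higher and 2 lower, against 7.43% and 12.2% of all tested genes. The median log2 fold change of this list was -0.07. Soat1, which stores cholesterol as esters, rose 3.57-fold and the oxysterol receptor gene Gpr183 6.50-fold. Gpr183 had a control mean of 0.482 FPKM and passed the filter through the Dot1l-deleted libraries alone. Npc1 and Acat1 fell 1.48-fold and 1.53-fold, and 0 genes of this list were called lower when any 1 control library or the second Dot1l-deleted one was left out. Median-of-ratios scaling raised these counts to 10 and 6, against 23.0% and 22.3% of all tested genes. Star, which brings cholesterol to CYP11A1 in steroid-making cells, was not called, with means of 1.44 ± 0.223 FPKM (controls) and 1.03 ± 0.231 (Dot1l-deleted; SD, n = 3 each, limma adjusted p = 0.3576).

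**Figure D5:**
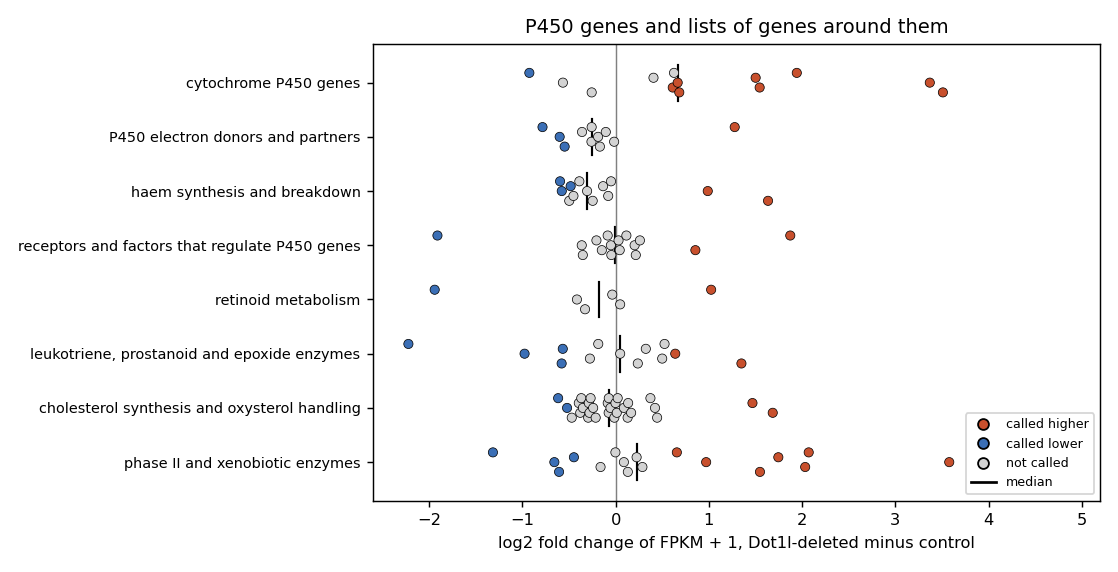
Log2 fold change of FPKM + 1 (Dot1l-deleted minus control, horizontal axis) of each tested gene among the P450 genes and 7 lists around them. Red points were called higher, blue points lower and grey points were not called, and black bars are list medians, 0.67 for the P450 genes and -0.26 for the electron donors and partners. Among the P450 genes, Cyp2a5, Cyp2j9 and Cyp27a1 passed the filter through the Dot1l-deleted libraries alone.

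Markers of mature myeloid cells moved with the P450 genes that rose. All 10 tested neutrophil markers were called higher, against 7.43% of all tested genes. The summed level of the 12 matched neutrophil markers was 995 to 1228 FPKM in controls and 20635 to 24466 after deletion. Ly6g and Mmp9 were listed at 0 in all controls, and Mmp9 also in Dot1l-deleted libraries 2 and 3. Of 8 tested monocyte and macrophage markers, 6 were called higher and Ccr2 lower, and the sum of the 10 matched was 136 to 153 FPKM in controls and 468 to 544 after deletion. Their part in the P450 results was not tested. Of 8 stromal and endothelial markers, Dcn was at 0 throughout and the sum was 2.48 to 4.17 FPKM over all libraries.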

How the data were processed

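The deposited FPKM values were used as the authors made them, 1 table per library. The build mm9 and the tools Cuffdiff, SAMtools, GSNAP and CASAVA 1.8.2 are named, per the submitters' processing notes, without role or order. The library kit was a stranded mRNA kit, per the labels' protocols, and for strand use in counting an answer was not given in the sources used here. All 378 genes with the placeholder 999999999 in any library were left out. The depth of the libraries is known only through the approximate worth of 1 fragment.

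The 11924 genes with a mean of at least 1 FPKM were compared on log2(FPKM + 1) by limma 3.58.1 (R 4.3.3, lmFit and eBayes, trend on), two-sided, with Benjamini-Hochberg adjustment at 0.05. The script was tested on simulated data. Members and lists were chosen with earlier results of these data known. Of 157 symbols in the pathway lists, 147 were matched. Named genes were Dot1l, every tested member, the 3 members nearest below the filter, any member that reached 1 FPKM, a fixed set of tissue-specific members, and, per pathway list, up to 4 called genes by smallest adjusted p. Every other named gene, such as Cyp1b1, Cyp2b10, Ahr, Star, Alas2, Cyp51, Tbxas1 and the single markers, was picked once values had been seen. The tested alternatives were the pseudocount, the filter, scaling, the variance trend, a block for replicate number and each library left out; 1 more, median-of-ratios scaling with the third Dot1l-deleted library left out, was chosen after seeing the data. Repeated stretches of 50 bases were counted on the longest GENCODE M21 transcript of each gene.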

Additional observations from a re-analysis of the deposited data

How the results depend on the processing

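Cyp2a5, Cyp2j6, Cyp2j9, Cyp27a1, Cyp4f18 and Cyp2d40 kept their direction and their call under all 14 alternatives, Cyp20a1 was called under none, and no tested P450 gene changed sign under any of them. The number of P450 genes called higher, 8, was 5 to 10 with each library left out and 9 or 10 otherwise. The number called lower, 1, was 1 to 2 with each library left out, 3 with no filter, and 2 after median-of-ratios scaling, after quantile normalization, and after the former with Dot1l-deleted library 3 dropped. Among all tested genes, 886 were called higher and 1459 lower. With each library left out these were 661 to 2069 and 763 to 2504, the highest without Dot1l-deleted library 3. They were 2740 and 2661 after median-of-ratios scaling, 2333 and 2236 after it with that library dropped, and 2412 and 3196 after quantile normalization. With no filter 1342 were called higher. The cause was not tested.

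The deviations of same-numbered libraries from their group means had correlations of -0.03, -0.038 and 0.013. With so few libraries per group, these values cannot show whether same-numbered libraries shared a culture or an animal. With a replicate block 9 P450 genes were called higher, Cyp2u1 being added (limma adjusted p = 0.02407), and 1 lower, beside 1152 and 1801 of all tested genes. No library correlated best with its own number.

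Counts of the pathway lists over the alternatives ran from 2 to 10 higher and 0 to 6 lower for cholesterol and oxysterol genes. They were 1 to 6 and 2 to 4 for leukotriene and prostanoid genes and 2 to 6 and 1 to 3 for receptors. Retinoid genes gave 1 to 3 and 1 to 3, and electron donors and partners 1 to 2 and 0 to 5. Other enzymes of foreign-compound metabolism gave 6 to 12 and 1 to 4. Haem genes called lower ran from 0 to 6, and 2 were higher throughout. Depth limits the members below the filter, many of which rest on a few fragments.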

Other observations

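Other enzymes of foreign-compound metabolism, among them some that conjugate products of P450 enzymes, also differed between the groups. Of 17 tested genes of this list, 7 were called higher and 4 lower, against 7.43% and 12.2% of all tested genes, with a median log2 fold change of 0.23. Mgst1, a membrane-bound glutathione transferase gene, rose from 3.95 ± 0.628 to 58.1 ± 6.86 FPKM (SD, n = 3 each; log2 fold change 3.58, SE 0.154, limma adjusted p = 2.86e-07). Gstm2 rose 5.87-fold and Gstm1 2.97-fold, both cytosolic glutathione transferase genes whose close relatives can share reads. Fmo5, a flavin monooxygenase gene, rose 6.15-fold, from 1.51 ± 0.132 to 9.31 ± 1.03 FPKM. The genes called lower were Nqo1, Gstt1, Gstp1 and Tpmt. After median-of-ratios scaling the counts were 12 and 3, against 23.0% and 22.3% of all tested genes. With control library 2 or 3 left out, 1 gene of this list was called lower. Of 6 tested erythroid markers, 3 were called higher and 2 lower. The summed hepatocyte markers, which include Hnf4a, were at 6.25 to 7.11 FPKM in controls and 1.44 to 3.23 after deletion.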
